A study of Drosophila melanogaster with 42 samples.

Results

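A set of 10 genes that bind, move or sense metals was followed across 9 genotype and sex comparisons in adult Drosophila heads and dissected central nervous system (CNS). They are the metallothionein genes *MtnA*, *MtnB*, *MtnC* and *MtnD*, the zinc transporter genes *Zip102B* and *ZnT63C*, the metal-responsive transcription factor gene *MTF-1*, the ferritin genes *Fer1HCH* and *Fer2LCH*, and the transferrin gene *Tsf1*. A probe was taken where its symbol in the array annotation, or its current name, was one of these 10 genes. Each gene had 1 probe, so they are 10 of 16320 probes, of which 12913 carry a gene symbol (12165 symbols in all). *MtnA* to *MtnD* and both ferritin genes lie on chromosome arm 3R, *ZnT63C* and *MTF-1* on 3L, *Tsf1* on X and *Zip102B* on chromosome 4.

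Free copper, zinc and iron are needed by enzymes and toxic in excess, so cells hold them within narrow limits. When copper, zinc or cadmium rises, MTF-1 enters the nucleus, binds metal response elements and activates metallothionein genes, whose small cysteine-rich products take up the metal ions. ZIP proteins bring zinc into the cytosol and ZnT proteins move it out, while in insects the H and L ferritin subunits store iron in secreted shells and transferrin carries iron in the haemolymph.

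Every array held RNA of 2 genotypes or sexes, labelled in 2 colours, and each value is a log2 ratio, so that 0 means equal signal and 1 means a doubling. The ratios are given here as mutant over wild type or female over male, and carry no level of either sample. Heads of *tra* XX pseudomales (y w ubi-gfp over w, with tra1 over the deficiency Df(3L)st-j7), of dsxD XX pseudomales (y w ubi-gfp over w, with dsxD Sb over dsxm+r15, which make only the male DSX protein) and of *dsx* null XX intersexes (dsxd+r3 over dsxm+r15, no DSX, with ubi-gfp) were each compared with Canton-S female heads, and *dsx* null XY heads with Canton-S male heads, on 4 arrays each. Male heads of fruw12/frucham5, which carry w, were compared with w; Berlin males on 4 arrays, and those of fru4-40/fruP14 with Canton-S males on 4 arrays, and the CNS of the same genotypes on 3 arrays each. Females were compared with males in heads of Canton-S (4 arrays) and Berlin (4 arrays) and in the Canton-S CNS (4 arrays).

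Each sample pooled about 100 heads, or the brains and ventral nerve cords of about 20 flies, whose RNA was amplified before labelling. The labels give an age of 0 to 24 h after eclosion, and the extraction protocol one of 8 to 24 h. Both *fru* genotypes combine deficiency chromosomes around *fru*, and fru4-40/fruP14 also lacks the transcripts of the second *fru* promoter. Mutants and wild type came from different stocks in all mutant comparisons, and no array compares 2 stocks without a mutation, so the mutation and the stock cannot be told apart. Where titles of the *fru* arrays name other strains than the channel descriptions, the channel descriptions were used. The *fru* probe 16173 was lower in mutants on all 8 *fru* head arrays, and probe 7797 on all 6 *fru* CNS arrays. Between 36 and 72.9% of probes had a value on an array. All 5 neuron marker probes had a value on each of the 10 CNS arrays, but so did all 5 midgut marker probes, and 22 of 30 photoreceptor marker values were present, so having a value does not separate tissues here. In pooled tissue, fewer cells of a type and less RNA per cell cannot be told apart.

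A probe with a value on 75% or more of the arrays of a comparison was tested in limma, and a change was called at a Benjamini-Hochberg adjusted p under 0.15 over all probes tested. Of the 90 combinations of 10 genes and 9 comparisons 69 could be tested, and 18 of these were called, 14 higher and 4 lower in the mutants or in females. *Zip102B* gave 6 of the 18 calls, *MtnA* 4, *MtnB* 3, *MtnD* and *Tsf1* 2 each and *ZnT63C* 1. *Fer1HCH* and *Fer2LCH* (9 comparisons each), *MTF-1* (4) and *MtnC* (3) were never called. The calls fell unevenly over the comparisons. In fruw12/frucham5 heads 5 of 8 genes tested were called, all higher, where 17% of all 9473 probes were called and 8.76% were called higher. In fru4-40/fruP14 heads 3 of 8 were called, all higher, where 20.2% of 7228 probes were called and 9.74% were called higher. The *fru* CNS had 1 gene higher and 1 lower of 10, against 0.269% of 8538 probes called.

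In heads of *tra* pseudomales 1 of 6 genes was called, and higher, against 9.55% of 9070 probes called and 5.04% called higher. For dsxD it was 2 of 6, 1 in each direction, against 5.97% of 9510 probes. For *dsx* null XX it was 2 of 8 against 21.5% of 8595 probes, and for *dsx* null XY 2 of 7 against 25.7% of 8210 probes, so the shares of these genes in the null animals are near those of all probes. Between the sexes 1 of 7 genes was called in heads, higher in females, against 9.08% of 8135 probes called and 5.1% called higher, and 0 of 9 in the CNS, against 0.0602% of 8307 probes. In the CNS sex comparison 116 of all probes had an unadjusted p under 0.05 in limma, 0 of them among these genes, and the methods' t-test called 0. Over all comparisons that t-test, adjusted in the same way, kept 7 of the 18 calls: those of *Zip102B* in *dsx* null XX heads and in *fru* heads and CNS, of *MtnB* and *MtnD* in fru4-40/fruP14 heads, and of *Tsf1* in *dsx* null XY heads.

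**Figure D1:**
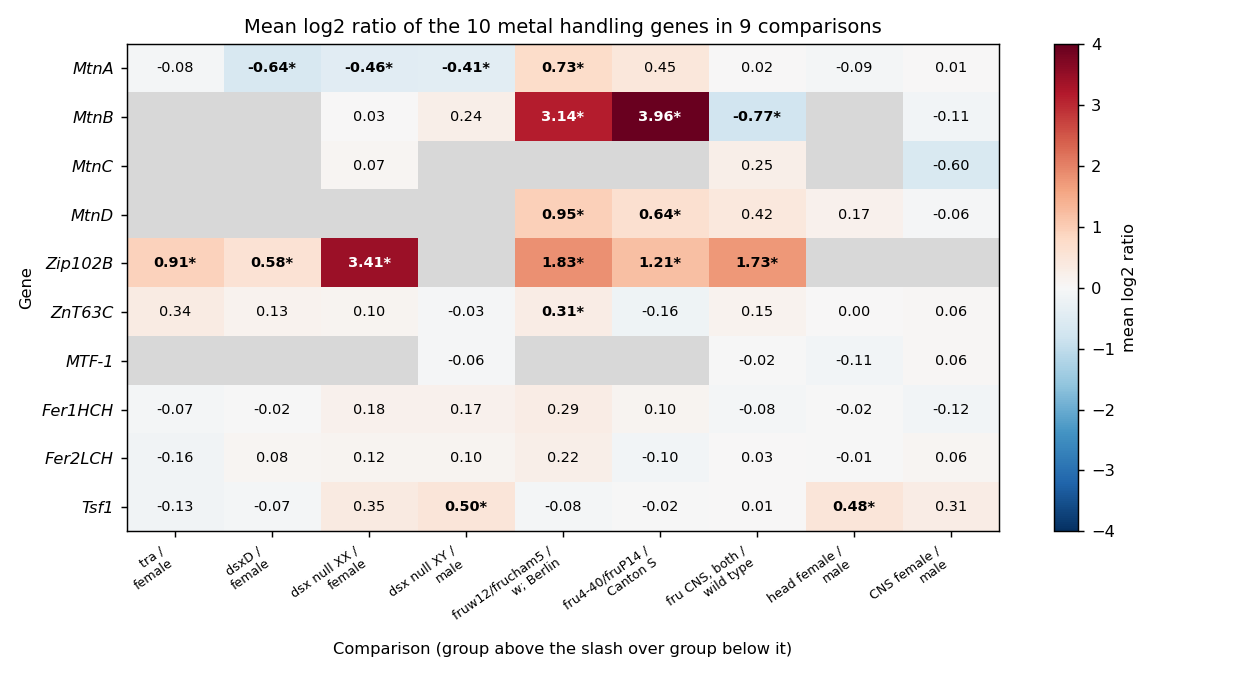
Mean log2 ratios of the 10 genes (rows) in the 9 comparisons (columns), with mutant over wild type or female over male. Asterisks mark means called at an adjusted p under 0.15 and grey cells were not tested; the 3 darkest cells are *MtnB* in *fru* heads, at 3.14 and 3.96, and *Zip102B* in *dsx* null XX heads, at 3.41.

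The regulator itself, *MTF-1*, had a value on 20 of 32 head arrays and on all 10 CNS arrays. It was tested in heads of *dsx* null XY (log2 -0.06, SE 0.11), heads of females over males (-0.11, SE 0.10), the *fru* CNS (-0.02, SE 0.09) and the CNS of females over males (0.06, SE 0.17), with adjusted p of at least 0.625 in each. On the 2 fruw12/frucham5 head arrays with a value it stood at -0.02 and -0.05, and on the 2 of fru4-40/fruP14 at -0.25 and -0.25. On the 2 *tra* arrays with a value it stood at -0.55 and -0.43. None of these 3 groups had enough values for a test. The fru4-40/fruP14 values came only from arrays with the mutant in Cy5. Any relation of *MTF-1* RNA to the metallothionein values was not tested.

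*MtnB*, whose product binds copper and cadmium, was the most changed of the 10 genes in *fru* heads. Its log2 ratios on the fruw12/frucham5 arrays were 3.93, 3.79, 3.38 and 1.47. On the fru4-40/fruP14 arrays they were 3.76, 4.59, 3.42 and 4.06. All 8 values were above 1, and only array 4 of fruw12/frucham5 lay clearly below the others. The mean was 8.84-fold higher in fruw12/frucham5 than in w; Berlin heads (log2 3.14, SE 0.35, 95% interval 2.34 to 3.95, limma adjusted p 0.00186). In fru4-40/fruP14 it was 15.5-fold higher than in Canton-S heads (log2 3.96, SE 0.18, 95% interval 3.55 to 4.37, limma adjusted p 3.63e-05). Outside the *fru* heads this probe often had no value, with 5 of 8 head arrays of the sexes, 0 of 4 *tra* and 1 of 4 dsxD arrays carrying one. It did have a value on 4 of 4 *dsx* null XX and 4 of 4 *dsx* null XY head arrays, and on all 10 CNS arrays. A spot kept only because the mutant is bright would have to differ, and whether this was so here was not tested. With no level of the wild type given, the size of these folds is uncertain. The difference between the allele combinations, -0.81, did not pass (95% interval -1.83 to 0.20, limma adjusted p 0.282, where 23.9% of 6821 probes were called).

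In the *fru* CNS *MtnB* moved the other way. Its ratios were -1.0, -0.50 and -1.05 in fruw12/frucham5 and -0.63, -0.66 and -0.78 in fru4-40/fruP14, so that all 6 arrays were below 0 and the 2 sets of arrays overlapped. The mean was 1.71-fold lower in mutants (log2 -0.77, SE 0.096, 95% interval -0.99 to -0.55, limma adjusted p 0.0624). This call rests on all arrays: when 1 array other than array 2 of fruw12/frucham5 was left out, the adjusted p lay between 0.197 and 0.273 and the mean between -0.80 and -0.71. The *fru* effect in heads less that in the CNS was 4.32 (SE 0.34). This contrast was chosen after these values were seen and uses head folds of uncertain size, so no p is given for it. Heads and CNS also differ in the amplification of the RNA.

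Elsewhere *MtnB* was not called in any comparison where it could be tested. In *dsx* null XX heads its ratios were -0.47, 0.04, 0.43 and 0.10 (mean 0.03, SE 0.15) and in *dsx* null XY heads -0.63, 0.45, 0.78 and 0.37 (mean 0.24, SE 0.22), and neither mean was called. It had no value on the *tra* arrays and 1 value, -0.38, on the dsxD arrays. Females over males gave -0.39 to 0.47 on 5 of 8 head arrays, too few for a test, and a mean of -0.11 (SE 0.20) in the CNS, which was not called.

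*MtnD* was also higher in *fru* heads, by less. Its ratios were 0.69, 1.76, 1.33 and 0.00 in fruw12/frucham5 heads (1.93-fold higher, log2 0.95, SE 0.25, limma adjusted p 0.0561). They were 0.67, 0.62 and 0.62 on the 3 arrays of fru4-40/fruP14 heads with a value (1.56-fold higher, log2 0.64, SE 0.11, limma adjusted p 0.0159). The fruw12/frucham5 arrays spread over almost 2 log2 units and 1 of them showed no change, whereas the fru4-40/fruP14 arrays lay close together. Without array 2 of fruw12/frucham5 the mean was 0.67 and no longer called (limma adjusted p 0.175). With 3 values, the fru4-40/fruP14 mean could not be tested once any 1 of those arrays was left out. The difference between the combinations was 0.31 (95% interval -0.44 to 1.06) and not called. In the other mutant heads this probe had a value on 2 of 4 *tra*, 2 of 4 dsxD, 2 of 4 *dsx* null XX and 1 of 4 *dsx* null XY arrays. It had one on 6 of 8 head arrays of the sexes and on all 10 CNS arrays. As for *MtnB*, no level of the wild type is given, so the size of the *MtnD* folds is uncertain. In *dsx* null heads *MtnD* had too few values for a test, 0.60 and 0.89 in XX and 1.73 in XY. All were above 0, but all came from arrays with the mutant in Cy5. In heads of *tra* it had -0.18 and 0.03, and in those of dsxD -0.03 and 0.10. Females over males averaged 0.17 (SE 0.12) in heads and -0.06 (SE 0.20) in the CNS, neither of them called.

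*MtnA*, the first metallothionein gene described in this fly and a copper-responsive one, split by genotype. It was called lower in all 3 *dsx* mutants. In dsxD heads its ratios were -0.39, -0.87, -0.58 and -0.73 (1.56-fold lower, log2 -0.64, SE 0.11, limma adjusted p 0.0414). In *dsx* null XX heads they were -0.70, -0.43, -0.22 and -0.48 (1.37-fold lower, log2 -0.46, SE 0.11, limma adjusted p 0.0388), and in *dsx* null XY heads -0.60, -0.82, -0.00 and -0.21 (1.33-fold lower, log2 -0.41, SE 0.15, limma adjusted p 0.13). Of the 12 arrays 11 lay clearly below 0 and 1 at it. The XY call was lost without array 1, 2 or 4 (limma adjusted p 0.253, 0.318 and 0.209), and its arrays divided by dye, with a mean of -0.11 where the mutant carried Cy5 and -0.71 where it carried Cy3. The dsxD call was lost without array 2 (log2 -0.57, limma adjusted p 0.16). The tests of dsxD less *dsx* null XX (-0.18, 95% interval -0.53 to 0.16) and of XX less XY (-0.05, 95% interval -0.47 to 0.37) did not pass, and the first 2 comparisons share Canton-S females as the wild type.

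In *tra* pseudomales, which also produce the male DSX protein, *MtnA* had ratios of -0.17, 0.06, -0.26 and 0.05 (mean -0.08, SE 0.12) and was not called. The difference *tra* less dsxD was 0.56 (95% interval 0.22 to 0.91, unadjusted p 0.00403), but it did not pass the adjustment in limma (adjusted p 0.388, where 0.417% of 8157 probes were called). The 4 *tra* ratios all lay above the 4 dsxD ratios, but these are the values that entered this test and add nothing to it.

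In *fru* heads *MtnA* was higher on all 8 arrays. The ratios were 0.91, 0.93, 0.76 and 0.31 in fruw12/frucham5 heads (1.66-fold higher, log2 0.73, SE 0.12, limma adjusted p 0.0117) and 0.01, 0.23, 0.41 and 1.17 in fru4-40/fruP14 heads (log2 0.45, SE 0.18, limma adjusted p 0.165, not called). The fru4-40/fruP14 arrays ran from no change to more than a doubling, with the mutant in Cy3 on the higher 2. Females over males gave -0.51 to 0.27 on 7 head arrays (mean -0.09, SE 0.09) and -0.09 to 0.08 in the CNS (mean 0.01, SE 0.17), without a call in either. Thus 3 metallothionein genes were called higher in fruw12/frucham5 heads, where 8.76% of 9473 probes were called higher. In fru4-40/fruP14 heads 2 were, where 9.74% of 7228 probes were called higher. *MtnC* could not be tested in either. Of these calls the methods' t-test kept only those of *MtnB* and *MtnD* in fru4-40/fruP14 heads. In *dsx* mutants only *MtnA* of the metallothionein genes was called, but in dsxD heads it was also the only one tested. *MtnD* could not be tested in any *dsx* comparison, nor *MtnC* in *dsx* null XY heads. Of all probes 5.97% were called in dsxD, 21.5% in *dsx* null XX and 25.7% in *dsx* null XY heads.

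*MtnC* had values on 16 of 42 arrays. Its ratios in *dsx* null XX heads were 0.04, 0.13, -0.01 and 0.12, and in XY heads -0.27 and -0.25. A single *fru* head array, of fruw12/frucham5, had a value, 1.52. In the *fru* CNS it ranged widely, with 2.05, -0.92 and -0.94 in fruw12/frucham5 and 1.78 and -0.72 in fru4-40/fruP14 (mean 0.25, SE 0.53). The CNS ratios of females over males were -0.99, -0.65, -1.52 and 0.74 (mean -0.60, SE 0.30). The CNS arrays of both comparisons contradict one another in sign, and no mean of this gene was called.

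*MtnC*, *MtnB* and *MtnD* are neighbours, with 7 annotated genes between *MtnC* and *MtnB* and 3 between *MtnB* and *MtnD*. They lie on the same arm as *fru*, 218 to 230 annotated genes away from it, and *MtnA* lies 1305 genes away. How far the *fru* deficiencies reach is not given in the sources used here.

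**Figure D2:**
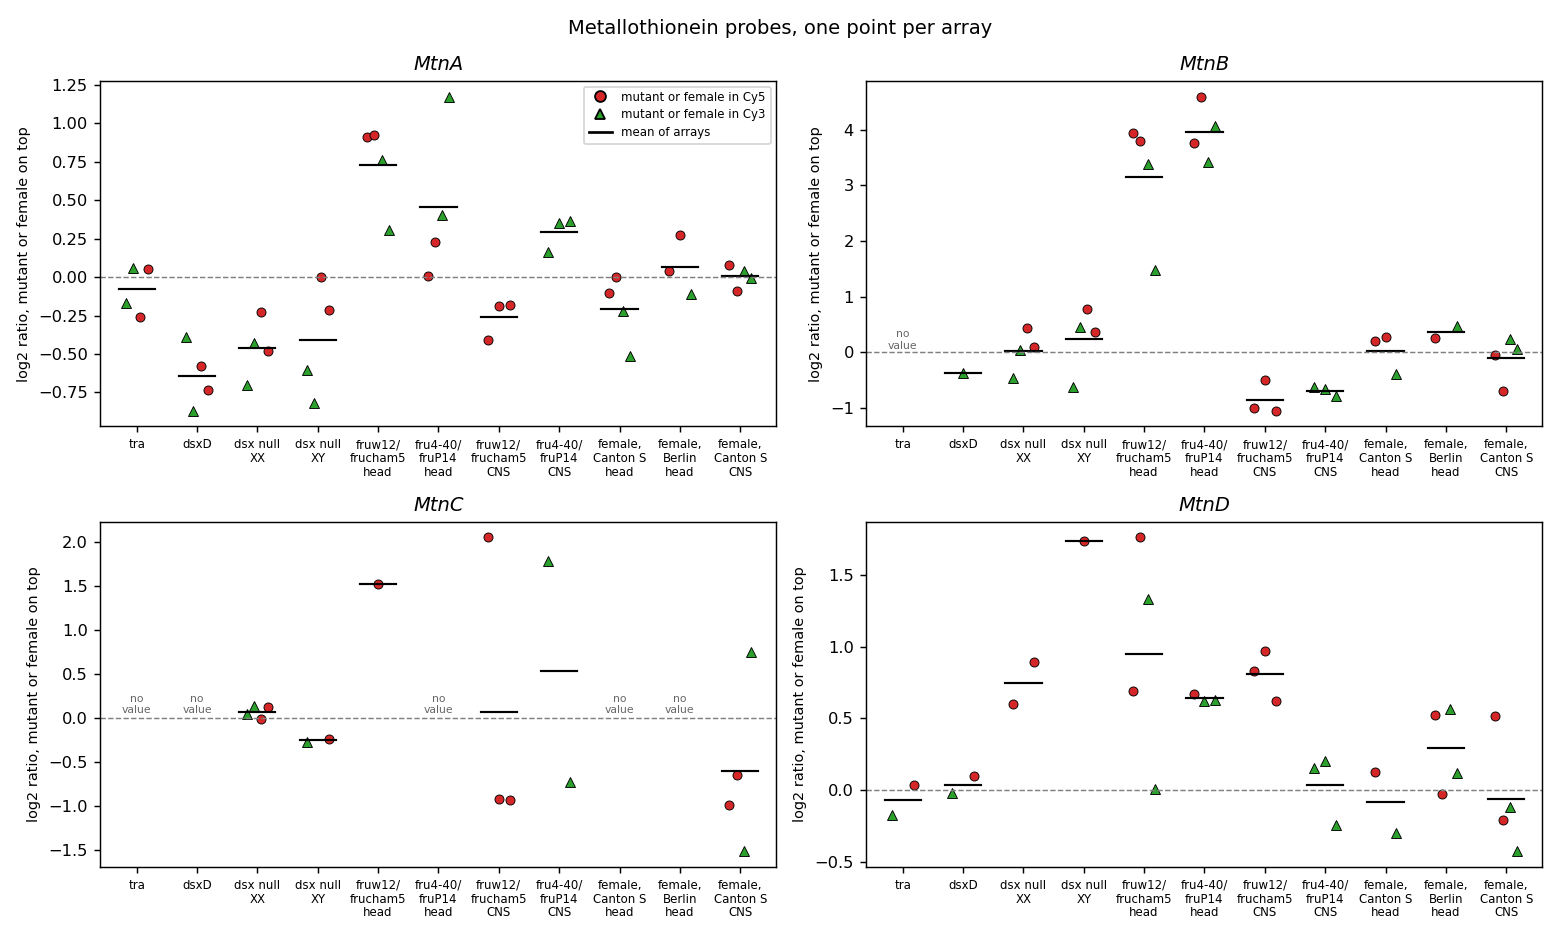
Log2 ratios of the 4 metallothionein probes on each array (points, circles with the mutant or female in Cy5 and triangles in Cy3) by group, with bars at the group mean; each panel has its own scale. *MtnB* stands between 1.47 and 4.59 in *fru* heads and between -1.05 and -0.50 in the *fru* CNS, and *MtnA* lies at or below 0 in the 3 *dsx* groups.

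*Zip102B*, a predicted zinc importer of the ZIP family, was called higher in the mutant in 6 comparisons, and stood above 0 on the 26 mutant arrays with a value. Between the sexes it had a value on 5 of 8 head arrays and 0 of 4 CNS arrays, against 6 of 6 *fru* CNS arrays. A spot kept only through a bright mutant channel would have to differ. The number of comparisons tested and the signs can therefore in part be set by the filter, which was not tested. The size of the folds against a wild type of unknown level is uncertain. In *tra* heads its ratios were 0.90, 1.14 and 0.68 (1.88-fold higher, log2 0.91, SE 0.15, limma adjusted p 0.0122), and in dsxD heads 0.88, 0.35, 0.54 and 0.53 (1.49-fold higher, log2 0.58, SE 0.12, limma adjusted p 0.0641). These 2 sets overlapped, and their difference of 0.33 did not pass (95% interval -0.08 to 0.74). The dsxD call was lost without array 3 or 4 (limma adjusted p 0.167 and 0.15), with means of 0.59 in both cases.

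In *dsx* null XX heads *Zip102B* reached 3.09, 3.74 and 3.41, a mean 10.7-fold above Canton-S females (log2 3.41, SE 0.15, 95% interval 3.05 to 3.78, limma adjusted p 0.000128). The test of dsxD less *dsx* null XX gave -2.84 (SE 0.20, limma adjusted p 0.000126, where 5.75% of 6970 probes were called). Every null XX array lay over 2 log2 units above the highest dsxD array, but these values entered that test and add nothing to it. With 3 values the null XX mean, and this difference, could not be tested once any 1 of these 3 arrays was left out, and the *tra* mean likewise. In *dsx* null XY heads the 2 values were 0.58 with the mutant in Cy3 and 5.0 with the mutant in Cy5, so far apart that no level can be read from them.

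In *fru* mutants *Zip102B* was close to even between arrays. In fruw12/frucham5 heads the ratios were 1.79, 2.13, 1.78 and 1.64 (3.56-fold higher, log2 1.83, SE 0.11, limma adjusted p 0.000142). In fru4-40/fruP14 heads they were 1.18, 1.32, 1.16 and 1.17 (2.31-fold higher, log2 1.21, SE 0.09, limma adjusted p 0.000351). The difference of 0.63 (SE 0.13) was called (limma adjusted p 0.0111). The 2 sets did not overlap, but these are the values that entered this test and add nothing to it. In the CNS the ratios were 1.56, 1.85 and 1.98 in fruw12/frucham5 and 1.56, 1.57 and 1.86 in fru4-40/fruP14, which overlapped. The CNS mean was 3.32-fold higher in mutants (log2 1.73, SE 0.09, limma adjusted p 0.000709).

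Heads less CNS gave -0.21 for the *fru* effect on *Zip102B* (95% interval -0.55 to 0.13), which was not called. In the CNS the mean was 1.80 in fruw12/frucham5, with the mutant in Cy5, and 1.66 in fru4-40/fruP14, with the mutant in Cy3. Between the sexes its 5 values in heads, too few to test, were -0.57 and 1.09 in Canton-S and -0.09, -0.16 and -0.03 in Berlin. The sex ratios lay on both sides of 0. The signs of the mutant ratios can in part be set by the filter, which was not tested, so the sexes and the mutants are not compared by sign.

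The other probes of chromosome 4 were set beside *Zip102B*, with no test of the set. In the *fru* CNS 0 of the other 65 probes of this chromosome were called, where 0.269% of all 8538 probes were. None of the 65 was above a log2 ratio of 0.30. Of 61 in *dsx* null XX heads 4 were called higher and 9 lower, the highest being 1.62, with a median of -0.10. In fruw12/frucham5 heads the highest of 62 was 0.78, and in fru4-40/fruP14 heads, where 8 were called higher and 3 lower, the highest of 58 was 1.18. In *tra* heads 2 of 63 were called higher and 2 lower, with 1 probe at 3.19, above *Zip102B*. In dsxD heads 1 of 62 was called higher and 2 lower, with the highest probe at 0.95, also above *Zip102B*. Of all probes 21.5% were called in *dsx* null XX, 20.2% in fru4-40/fruP14, 9.55% in *tra* and 5.97% in dsxD heads.

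*ZnT63C*, the zinc exporter of the cell membrane, had a value on all 42 arrays and moved little. It was called once, in fruw12/frucham5 heads, with 0.00, 0.35, 0.32 and 0.57 (1.24-fold higher, log2 0.31, SE 0.11, limma adjusted p 0.142). That call was lost without array 2, 3 or 4 (limma adjusted p 0.26, 0.226 and 0.401). In fru4-40/fruP14 heads its ratios were -0.15, -0.23, -0.25 and 0.01 (log2 -0.16, SE 0.10, not called). The difference between the allele combinations, 0.47 (SE 0.14), was called (limma adjusted p 0.0535), although 1 array of fruw12/frucham5 lay below 1 array of fru4-40/fruP14. The other comparisons had means from -0.03 in *dsx* null XY heads to 0.34 in *tra* heads, where the 4 arrays ran from -0.14 to 0.84, and none was called.

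**Figure D3:**
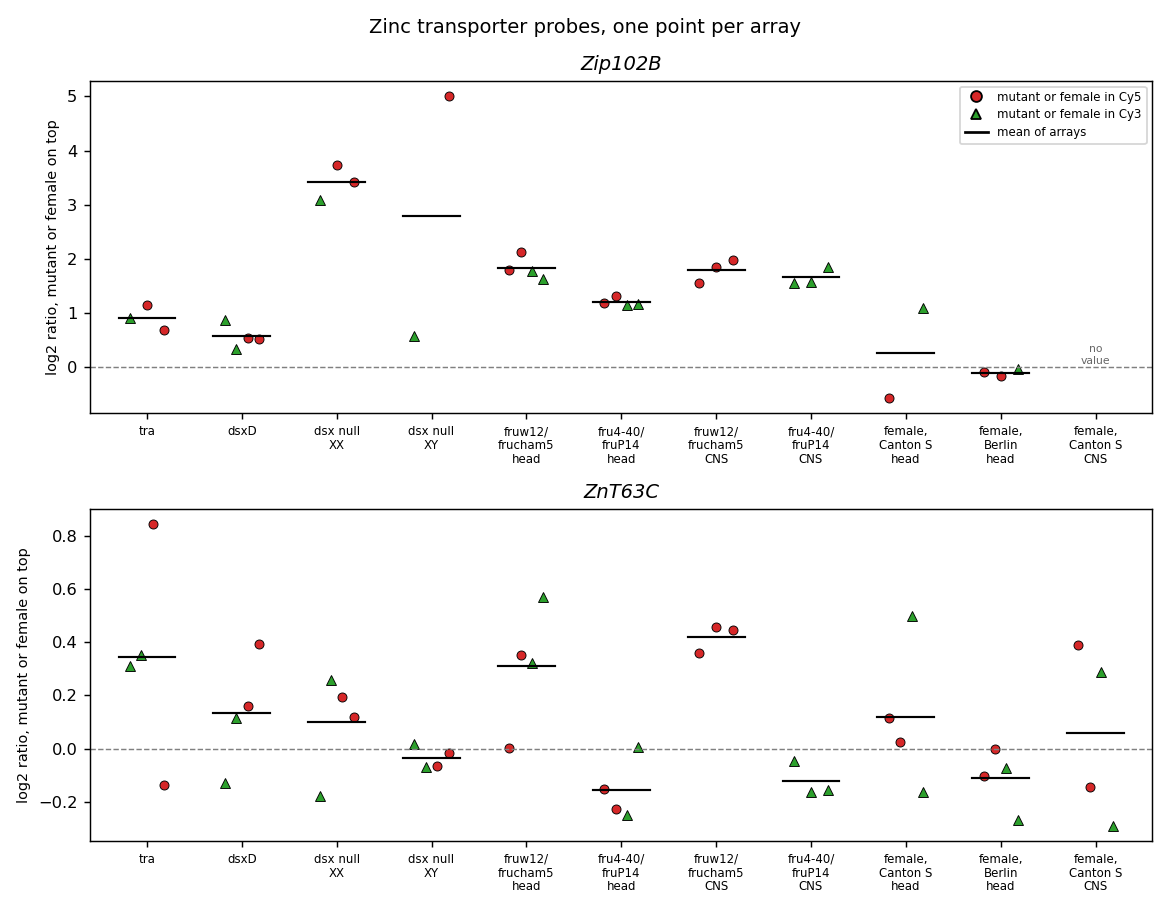
Log2 ratios of the zinc transporter probes on each array (circles with the mutant or female in Cy5, triangles in Cy3), with bars at the group mean. All 26 mutant values of *Zip102B* lie above 0, between 0.35 and 5.0, with signs that the spot filter can in part set (not tested), and *ZnT63C* stays between -0.29 and 0.84.

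*Fer1HCH* and *Fer2LCH* encode the heavy and light chains of secreted ferritin and are transcribed from overlapping stretches of 3R. Both had a value on all 42 arrays, and neither was called in any of 9 comparisons. Their means in heads ran from -0.07 in *tra* to 0.29 in fruw12/frucham5 for *Fer1HCH* and from -0.16 in *tra* to 0.22 in fruw12/frucham5 for *Fer2LCH*. The values closest to a call were those of *Fer1HCH* in fruw12/frucham5 heads, 0.16, 0.31, 0.67 and 0.02 (log2 0.29, SE 0.12, 95% interval 0.01 to 0.57, limma adjusted p 0.198). In heads of females over males the intervals were -0.24 to 0.19 for *Fer1HCH* and -0.23 to 0.22 for *Fer2LCH*.

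*Fer1HCH* followed the dye on several sets of arrays. In the CNS of females over males it was 0.64 and 0.38 with females in Cy5, but -0.89 and -0.63 with females in Cy3. In dsxD heads it was 0.37 and 0.28 with the mutant in Cy5, and -0.36 and -0.35 with the mutant in Cy3. The means over both orientations were -0.12 in the CNS and -0.02 in dsxD heads. *Fer2LCH* had a smaller split, of -0.16 (Cy5 less Cy3) in the CNS of females over males and of 0.42 in dsxD heads.

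*Tsf1*, the main iron-binding protein of the haemolymph, was higher in female than in male heads. The ratios were 0.40, 0.29, 0.63 and 0.35 in Canton-S and 0.91, -0.11, 1.11 and 0.26 in Berlin, above 0 on 7 of 8 arrays. The mean was 1.40-fold (log2 0.48, SE 0.12, 95% interval 0.22 to 0.74, limma adjusted p 0.0517), and the strains did not differ beyond their spread (Canton-S less Berlin -0.12, 95% interval -0.66 to 0.41). Within a strain neither mean was called, 0.42 in Canton-S (limma adjusted p 0.307) and 0.54 in Berlin (limma adjusted p 0.22). In the Canton-S CNS females also had the higher value on all 4 arrays, 0.38, 0.35, 0.19 and 0.32, but the mean of 0.31 was not called (SE 0.17). The sex difference in heads less that in the CNS was 0.11 (95% interval -0.29 to 0.51), not called, where 0.13% of 6147 probes were.

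In *dsx* null XY heads *Tsf1* was higher than in males on all 4 arrays, with 0.43, 0.78, 0.39 and 0.39 (1.41-fold, log2 0.50, SE 0.11, limma adjusted p 0.0292). In the same comparison 6 of 6 fat body marker probes were called higher, the highest being *Yp2* at 5.70, and 4 of 5 neuron probes lower, and their part in the *Tsf1* value was not tested. In *dsx* null XX heads it had 0.73, 0.59, 0.15 and -0.06, which gave a mean of 0.35 that was not called (SE 0.15, limma adjusted p 0.18). XX less XY was -0.15 (95% interval -0.57 to 0.28), not called, where 0.751% of 7591 probes were. Heads of *tra* (mean -0.13, SE 0.12) and dsxD pseudomales (mean -0.07, SE 0.10), compared with females, gave no call, and neither did heads of fruw12/frucham5 (-0.08, SE 0.12) or fru4-40/fruP14 (-0.02, SE 0.09).

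**Figure D4:**
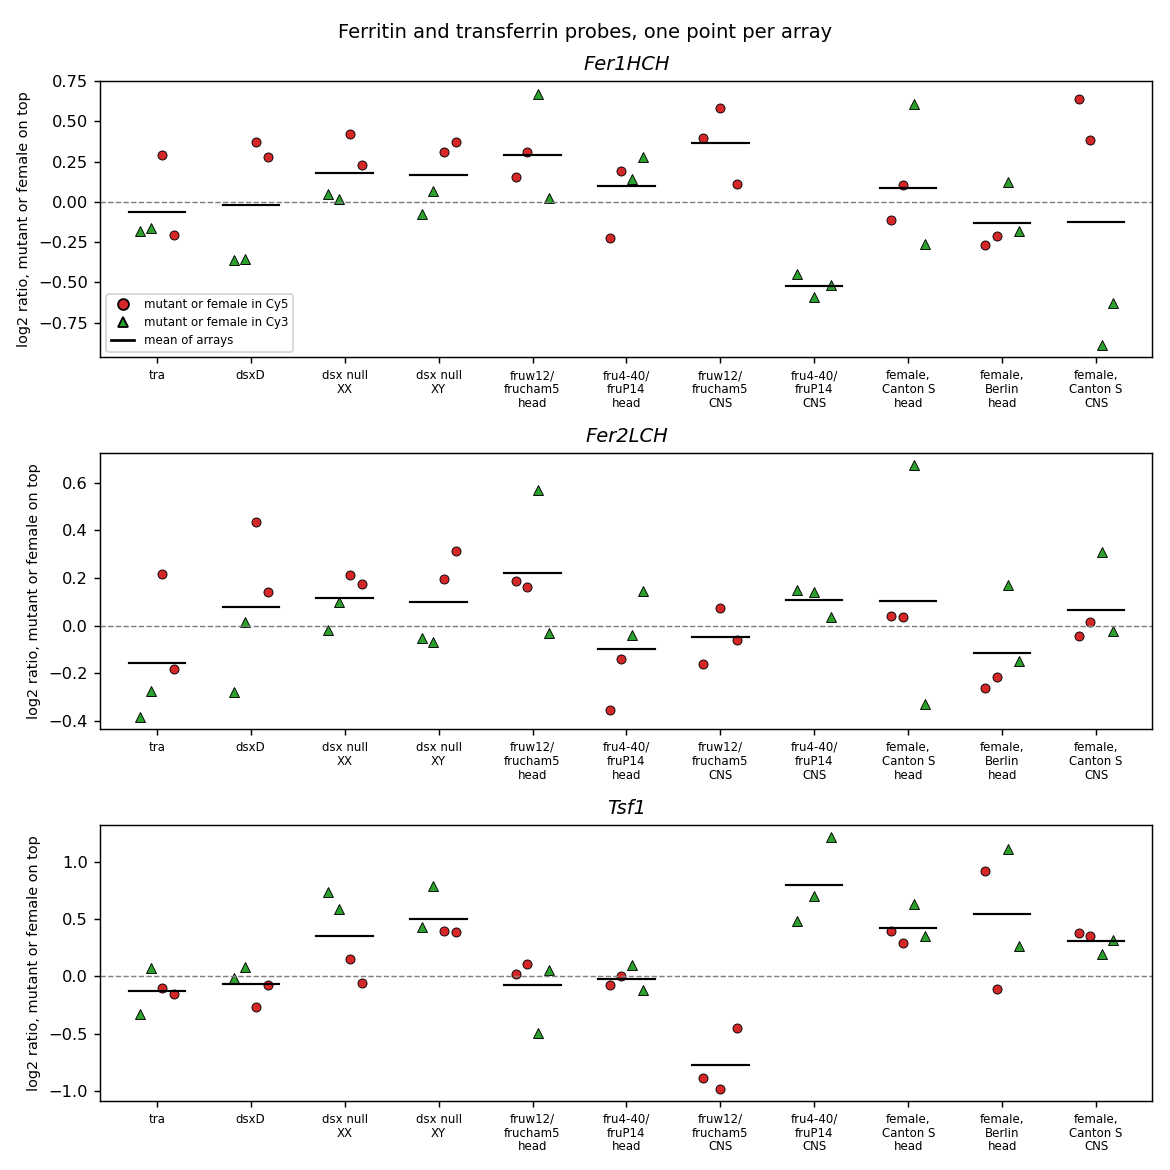
Log2 ratios of the ferritin and transferrin probes on each array (circles with the mutant or female in Cy5, triangles in Cy3), with bars at the group mean. *Tsf1* lies above 0 on 7 of 8 head arrays and 4 of 4 CNS arrays of females over males, and circles and triangles of *Fer1HCH* separate in the CNS.

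In the *fru* CNS the allele combination and the dye cannot be told apart, since all 3 fruw12/frucham5 arrays carried the mutant in Cy5 and all 3 fru4-40/fruP14 arrays in Cy3. Across all probes the arrays of opposite dye correlated at a median r of -0.52 there (9 pairs) and of -0.41 in the CNS of females over males (4 pairs), while in the 7 head comparisons that median was between 0.22 and 0.57. The difference fruw12/frucham5 less fru4-40/fruP14 was called at 70.1% of 7663 probes in the CNS, and at 6 of the 9 metal genes tested, a share no higher than that of all probes. *Tsf1* had -0.89, -0.98 and -0.45 in fruw12/frucham5 against 0.48, 0.70 and 1.21 in fru4-40/fruP14 (difference -1.57, SE 0.22). *Fer1HCH* had 0.39, 0.59 and 0.11 against -0.45, -0.59 and -0.52 (difference 0.88, SE 0.13). *MtnD* had 0.83, 0.97 and 0.62 against 0.15, 0.20 and -0.25 (difference 0.77, SE 0.15).

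The other calls among these differences were *MtnA* (-0.55, SE 0.11), *ZnT63C* (0.54, SE 0.09) and *MTF-1* (-0.34, SE 0.09), with limma adjusted p of 0.0014 to 0.0124 over all 6. *MtnB* (-0.16, SE 0.16), *Zip102B* (0.13, SE 0.14) and *Fer2LCH* (-0.16, SE 0.10) were not called, and *MtnB* and *Zip102B* kept 1 sign on all 6 arrays. They are the 2 genes called in the mean over both combinations. *MtnD* averaged 0.42 over the 6 arrays (SE 0.17, limma adjusted p 1) and was not called.

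**Figure D5:**
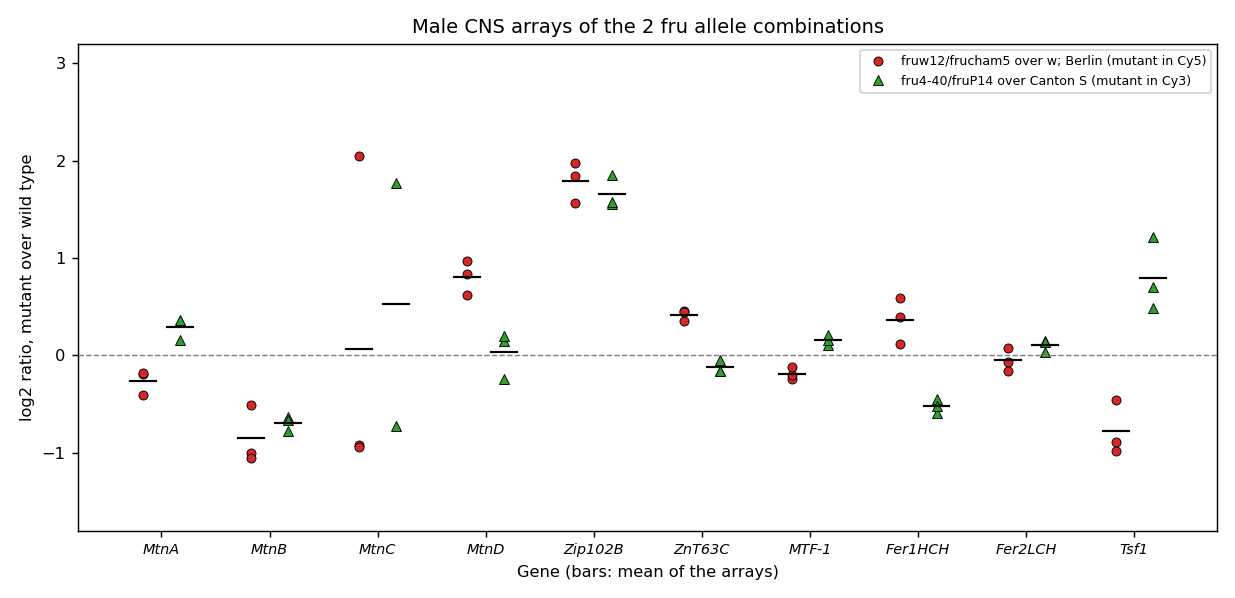
Log2 ratios of mutant over wild type for the 10 genes on the 6 *fru* CNS arrays, by allele combination, which here is also the dye of the mutant, with bars at the mean of each. *Zip102B* lies between 1.56 and 1.98 and *MtnB* between -1.05 and -0.50 in both, while *Tsf1* and *Fer1HCH* take opposite signs.

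Of 33 further genes of zinc, copper and iron handling 31 had a probe, with 33 probes in all. Their medians stayed between -0.04 and 0.13 over the 9 comparisons, close to the -0.03 to 0.01 of all probes tested. None was called in *tra*, dsxD or fru4-40/fruP14 heads or in either CNS comparison, out of 18 to 23 probes tested in each. In fruw12/frucham5 heads 4 of 22 were higher and 2 lower, 27.3% called against 17% of all probes. *Mco1*, a multicopper oxidase, was higher (log2 0.86, SE 0.12), as were both probes of the ZIP gene *Zip99C* (0.31 and 0.30) and *Catsup* (0.26), a ZIP protein that also restrains catecholamine synthesis. *Irp-1B*, an iron regulatory protein of the aconitase family (-0.43, SE 0.10), and *Atox1*, the copper chaperone (-0.38, SE 0.09), were lower.

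In *dsx* null heads the same list gave 4 higher of 21 probes in XX, and 5 higher and 1 lower of 20 in XY. These are 19% and 30% of the probes tested, near the 21.5% and 25.7% of all probes, so the genes below are given as values only. *ZnT35C*, which moves zinc into vesicles, was higher in both, by 1.24 (SE 0.22) in XX and 0.75 (SE 0.12) in XY. *Catsup* (0.37 in XX and 0.63 in XY), the zinc importer gene *Zip89B* (0.31 and 0.29) and 1 of 2 probes of the divalent metal transporter gene *Mvl* (0.27 and 0.27) were also higher in both. In XY heads *Tsf3* was also called higher (0.45) and *Atox1* lower (-0.37). Against males, female heads had less *Atox1* (-0.24, SE 0.08) and less *fh*, the frataxin gene of mitochondrial iron (-0.23, SE 0.07), the only 2 called of 19 probes tested (10.5%, against 9.08% of all probes).

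Markers of other tissues moved in the same comparisons, and their part in the values above was not tested. All 3 photoreceptor probes were higher in *dsx* null XX heads, between 1.64 and 2.96, and in XY heads 3 of 3, between 0.99 and 2.42. The XY heads also had 6 of 6 fat body probes higher (median 4.62), 4 of 5 neuron probes lower, between -1.27 and -0.31, and 2 of 4 muscle probes lower. In XX heads 2 of 7 fat body probes were higher and 3 lower, and 2 of 5 neuron probes lower. In fruw12/frucham5 heads 3 of 4 muscle probes were higher and 1 lower, 4 of 6 fat body probes were lower and 1 higher, and 0 of 3 photoreceptor, 0 of 5 neuron and 0 of 5 glia probes were called. In fru4-40/fruP14 heads 4 of 4 haemocyte probes were lower, between -2.15 and -0.59, 2 of 3 photoreceptor probes were higher, and 3 of 5 neuron and 2 of 5 glia probes were lower. In the *fru* CNS none of 31 marker probes of the 7 lists was called, where 0.269% of all probes were. Female heads had 5 of 6 fat body probes higher, between 0.50 and 7.02, with the yolk protein genes highest, in the comparison in which *Tsf1* was called. They also had 3 of 5 neuron and 2 of 5 glia probes lower and 2 of 4 muscle probes higher. Of all probes 9.08% were called in that comparison, 21.5% in *dsx* null XX and 25.7% in XY heads. In fruw12/frucham5 heads 17% were called, and in fru4-40/fruP14 heads 20.2%.

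Probes with the most similar pattern could be sought for the 5 genes with a value on at least 36 arrays, as a description over arrays that share wild-type stocks and dyes. *Fer1HCH* was most like *qsm* (Pearson r 0.83, 42 arrays), *CG3164* (0.83) and *Serinc* (0.81). *Tsf1* was most like *nec*, a serine protease inhibitor of the immune response (r 0.78, 41 arrays), and *MtnA* like *hyx* (0.70, 38 arrays). *ZnT63C* was most like *Unc-76* (r 0.68, 37 arrays) and *Fer2LCH* like the cathepsin gene *CtsL1* (0.71, 41 arrays).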

How the data were processed

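RNA of adult heads or dissected CNS was measured on 42 arrays of spotted long oligonucleotides, 16320 probes in the file, with 2 samples per array. The deposited log2 ratios were made by the authors: poor spots were removed by eye, spots were kept where over 75% of pixels exceeded background, and ratios were normalised by lowess in Bioconductor, whose version is not given in the sources used here. Deposited *tra* and *dsx* ratios ran wild type over mutant and were turned; the values were already turned for dye, which was checked on the sign of *Yp1* on the sex, *tra* and *dsx* arrays and of *fru* on the *fru* arrays. In the *fru* CNS the check rests on *fru* alone: *Yp1* had no value there, and *dsx* probe 3820 was below 0 on 2 of 2 fruw12/frucham5 arrays (mean -1.40) and above 0 on 3 of 3 fru4-40/fruP14 arrays (mean 1.15). A missing value is a spot removed by these filters. The number of arrays limits the precision, and median SE per probe was 0.09 to 0.19.

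Analysis used R 4.3.3 and limma 3.58.1 (lmFit, eBayes, Benjamini-Hochberg over all tested probes, called at 0.15), with a value required on 3 of 4, 5 of 6 or 6 of 8 arrays. A difference between 2 comparisons was fitted on all their arrays. SE and 95% intervals are limma's, moderated over probes. The labels describe samples as independent. Probes were matched by gene number or symbol to the current gene table, and 12389 had a match. All 10 genes are named, and others of the wider metal list where called. The members, the lists and the tests were chosen with earlier results of these data known. Alternatives were a value on 50% of the arrays, the methods' t-test, centred arrays, dye as a covariate, the strains apart, the replicate block and leaving out each array. In simulated data with 100 probes shifted by log2 1, the fit recovered 48 in the CNS of the sexes, and in the other 8 comparisons between 76 and 98. Probes without a shift made up 8.03 to 18.9% of the simulated calls in the comparisons. In the tests of a difference between comparisons they made up 21.5 to 28.1%, above the level of 0.15 used for calls.

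The replicate numbers of the labels were checked for pairing. Deviations of same-numbered arrays correlated at 0.176 to 0.423 for *tra* and dsxD, 0.19 to 0.399 for dsxD and *dsx* null XX, and 0.273 to 0.434 for *dsx* null XX and XY, but such arrays also share the dye of the mutant, and arrays that share the dye without the number correlated at 0.159 to 0.483. The numbers were taken as pairs only in the alternative fit.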

Additional observations from a re-analysis of the deposited data

Results flagged for a closer look

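Among 60 sets of 4 arrays of the 10 genes, 5 had 1 array far from the other 3, and chance alone sets apart about 1 in 20. They are *Zip102B* in fru4-40/fruP14 heads, where array 2 stood at 1.32 against 1.16 to 1.18 on the others, *Fer1HCH* in *tra* heads (array 3, 0.29), *Fer2LCH* in the Canton-S CNS (array 3, 0.31), *Tsf1* in *dsx* null XY heads (array 2, 0.78) and *Tsf1* in fruw12/frucham5 heads (array 3, -0.49). The calls of *Zip102B* in fru4-40/fruP14 heads and of *Tsf1* in *dsx* null XY heads held without their array.

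Differences between 2 effects that passed the test were, in heads, *Zip102B* (0.63) and *ZnT63C* (0.47) for fruw12/frucham5 less fru4-40/fruP14 (2 of 8 genes tested, where 23.9% of all probes were called) and *Zip102B* (-2.84) for dsxD less *dsx* null XX. In the CNS, where allele combination and dye cannot be told apart, fruw12/frucham5 less fru4-40/fruP14 differed for *Tsf1* (-1.57), *Fer1HCH* (0.88), *MtnD* (0.77), *MtnA* (-0.55), *ZnT63C* (0.54) and *MTF-1* (-0.34), 6 of 9 genes where 70.1% of all probes were called. Both shares are near those of all probes. For *MtnB* the *fru* effect in heads less that in the CNS was 4.32, a contrast chosen after these values were seen and given as a value only. The size of its head folds is uncertain, since the spot may be kept through the bright mutant. Heads and CNS also differ in the amplification of the RNA.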

How the results depend on the processing

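Centring the arrays or adding dye as a covariate changed no call of these genes, and no call changed direction under any alternative. The methods' t-test, on the same values, called 0 genes in the sex comparison of heads, *tra* and dsxD, and 1 each in *dsx* null XX, *dsx* null XY, fruw12/frucham5 heads and the *fru* CNS. Requiring a value on 50% of the arrays left 1 in *dsx* null XY. Canton-S alone and Berlin alone gave 0 in the sex comparison of heads. Leaving out 1 array gave 0 to 1 in *tra*, 1 to 2 in dsxD, 1 to 2 in *dsx* null XX and XY, 3 to 5 in fruw12/frucham5 heads, 2 to 3 in fru4-40/fruP14 heads, 1 to 2 in the *fru* CNS and 0 to 1 for dsxD less *dsx* null XX. In *tra*, *dsx* null XX and dsxD less *dsx* null XX the drop follows from too few values of *Zip102B*, and in fru4-40/fruP14 heads from too few of *MtnD*; elsewhere the cause was not tested. With the replicate block of the paired fit, the counts stayed at 1 for dsxD less *dsx* null XX (*Zip102B*, -2.94) and at 0 for *tra* less dsxD, XX less XY and heads less CNS of the sexes. Over all probes, dye as a covariate gave 478 calls instead of 23 in the *fru* CNS, 29 instead of 5 in the CNS of the sexes, 1470 instead of 866 in *tra*, 1940 instead of 568 in dsxD, 3011 instead of 1845 in *dsx* null XX, 4147 instead of 2113 in XY and 3012 instead of 1460 in fru4-40/fruP14 heads. The t-test called 10, 0, 128, 171, 938, 1329 and 581 in the same order, and 265 instead of 1608 in fruw12/frucham5 heads. The CNS comparison of the sexes has the least reach, with the highest SE, and *MtnC* the fewest values.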
